A study of Mus musculus with 238 samples.

Results

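The fatty acid binding proteins described here are Fabp1, Fabp3, Fabp5 and Fabp7, which are 4 of the 21076 gene rows of a count table. They were taken by name, and the set was chosen by one measured value, the diet difference of Fabp7 across the brain in these same libraries. The diet values of the family in brain are therefore given as a description with no test. Diet in liver, the plasma experiment on other mice and the levels between regions of control mice did not enter that choice and were tested. The libraries of the freely fed mice among these controls were, however, part of the diet contrast.

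The series holds bulk RNA sequencing of 15 brain regions and of liver from C57BL/6JN mice, all 19 months old. In the diet experiment, on females, 5 mice were dietary restricted (aDR, written DR for liver) and 4 were fed ad libitum (AL). In the plasma experiment, on males, 3 mice received retro-orbital injections of young mouse plasma (YMP) and 4 received PBS. There were 229 brain libraries, 131 from the diet and 98 from the plasma experiment, and 9 liver libraries, all from the diet experiment. Sex is the same as experiment, so differences between the experiments cannot be told apart from differences between the sexes. No genotype is altered in any group. The length and strength of the restriction, the plasma dose and the hour of sampling are not given in the sources used here. A brain region of the diet experiment usually held 5 aDR and 4 AL libraries, and one of the plasma experiment 3 YMP libraries with 4 PBS libraries or, in 5 regions, with 3. Smaller diet groups were in corpus callosum (4 aDR against 3 AL), entorhinal cortex (5 against 3) and hypothalamus (4 against 4). The smallest comparison was corpus callosum in the plasma experiment, with 2 YMP against 3 PBS.

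Fatty acid binding proteins are small proteins of the cytoplasm that enclose a long-chain fatty acid in a barrel-shaped pocket and carry it to membranes, enzymes or the nucleus, where some of them hand it to PPAR receptors. Fabp1 is the form of liver, Fabp3 that of heart and muscle and also of neurons, and Fabp5 that of skin, fat cells and many other cells. Fabp7, the brain form, prefers polyunsaturated fatty acids such as docosahexaenoic acid and is known from radial glia, astrocytes and the ensheathing glia of the olfactory system.

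All 4 genes lie on the plus strand of GRCm38 and have 4 exons in the principal transcript of the GENCODE annotation. Fabp7 lies on chromosome 10 (57784881 to 57788450), Fabp1 on chromosome 6 (71199827 to 71205023), Fabp3 on chromosome 4 (130308595 to 130315463) and Fabp5 on chromosome 3 (10012548 to 10016607). The bases before the annotated start are shown for Fabp7, the member with the diet difference in brain, and for Fabp1, the member found in liver alone in these counts, since nuclear receptors are known to act on genes of this family. Promoters of Fabp1, Fabp3 and Fabp7 were matched by symbol among RefSeq promoters of build GRCm38.p6; Fabp5 had no entry. Capitals mark a match, read on the opposite strand, to the nuclear receptor half-site AGGTCA for Fabp7 and to the direct repeat of AGGNCA with 1 base between its copies for Fabp1. The windows are chr10:57784673-57784880 for Fabp7 and chr6:71199629-71199826 for Fabp1, both on the plus strand.
Fabp7: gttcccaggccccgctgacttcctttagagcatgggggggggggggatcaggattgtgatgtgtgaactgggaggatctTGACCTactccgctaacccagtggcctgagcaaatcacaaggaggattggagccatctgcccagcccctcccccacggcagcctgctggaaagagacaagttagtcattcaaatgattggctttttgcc
Fabp1: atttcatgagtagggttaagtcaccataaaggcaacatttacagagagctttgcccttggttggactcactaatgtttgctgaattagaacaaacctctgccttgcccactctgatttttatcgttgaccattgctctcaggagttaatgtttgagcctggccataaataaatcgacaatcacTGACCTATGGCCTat

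Matches were searched on both strands of the full 300-base RefSeq windows, which run past the start of each gene. The half-site AGGTCA was found in 16.3% of all 32851 windows, once in Fabp7, at 2 places in Fabp1 and at none in Fabp3. That repeat of AGGNCA was found in 0.381% of windows and once in Fabp1, where it overlaps a half-site match. The clock-type E-box CACGTG, present in 7.15% of windows, had no match in any of the 3 promoters. The RBPJ core TGGGAA, the motif through which Notch acts, was found in 25.6% of windows and once in Fabp7. A match is a description of the letters, and no binding was measured.

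Library totals ran from 0.606 M to 32.4 M counts with a median of 8.44 M, and 6 libraries had under 2 M. The labels name separate mice as replicates. Mitochondrial genes took 1.47% to 8.04% of counts. In pons, the 10 most counted genes took 23.4% of the counts of aDR mouse 67 and 5.72% to 7.12% in the other libraries of the diet experiment, and the library of mouse 67 was also low in all 3 members found in brain. Tissue labels were checked against marker genes. Summed hepatocyte markers came to 65000 to 98500 CPM (counts scaled to the size of each library) in liver and to at most 4.7 CPM in any brain library. Summed choroid plexus markers ran from 164 to 16200 CPM among libraries labelled choroid plexus. They also reached 19100 CPM in corpus callosum and 19900 CPM in the subventricular zone (SVZ), so those dissections differed in how much choroid plexus RNA they held. Summed neuron markers in AL mice were 6520 to 8080 CPM in choroid plexus libraries and 5930 to 6500 in anterior hippocampus. Values given below for choroid plexus are therefore those of libraries that also held much neuron RNA.

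Fabp1, the liver form, was confined to liver in these counts. It had 17552 to 61579 counts in each liver library and 0 counts in 229 of 229 brain libraries. A count of 0 still allows 3 counts, which is 4.95 CPM in the shallowest and 0.0926 CPM in the deepest brain library, for counting error only. Fabp3 was the reverse, with 0 to 3 counts in the liver libraries and 35 to 1734 counts in each brain library. Fabp5 and Fabp7 were counted in every library of both organs. Of the family outside the 4 members, Fabp2, the intestinal form, had 208 to 765 counts in liver and at most 2 in any brain library. Fabp4, the fat cell form, had 14 to 98 counts in liver and reached 43 in brain. Fabp12 and the myelin form Pmp2 had at most 5 and 4 counts in a brain library, and Fabp6 and Fabp9 at most 1. Fabp3 and Fabp5 each have an annotated near-copy (Fabp3-ps1 and Fabp5l2) with no row of its own in the table, so reads that fit both cannot be separated.

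In control mice Fabp7 had the steepest regional pattern of the family, with the olfactory bulb far above the rest of the brain. Its CPM there was 539, 601, 363 and 551 in AL mice 63, 66, 68 and 69, and 416, 504, 561 and 441 in PBS mice 72, 76, 80 and 84. The entorhinal cortex came next, at 57.9, 36.9 and 53.5 CPM in AL mice 63, 66 and 69, and at 21.9, 63.3, 46.6 and 55.5 CPM in the 4 PBS mice. Every control library of the olfactory bulb was above every control library of the entorhinal cortex. The difference within mice was 3.48 on the log2 scale (SD 0.49, n = 7), with the olfactory bulb higher in 7 of 7 mice. The exact paired permutation test gave p = 0.0156, two-sided, the smallest that 7 mice allow, and 0.263 after Benjamini-Hochberg adjustment over the 42 neighbour comparisons of the 3 members. For all 3 members the order of regions came from these same control libraries, so the higher region of a step was not chosen independently. After adjustment a step can pass only where many of the 42 comparisons reach such a small p together, so the adjusted values of this test decide nothing. Limma over all genes with the mouse as a block, a test added after the data were seen, put the difference at 3.45 (SE 0.16, adjusted p = 6.62e-07). In that fit 70.8% of genes differed between these 2 regions, so a difference alone does not single Fabp7 out.

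Below the olfactory bulb the level of Fabp7 declined in small steps. Hypothalamus followed entorhinal cortex, with 36.7 ± 7.82 CPM in AL (SD, n = 4) and 41.9 ± 1.93 in PBS mice (SD, n = 3). Then came pons, thalamus, medulla, choroid plexus, anterior hippocampus, posterior hippocampus, SVZ and cerebellum, with AL means of 29.9 to 20.4 CPM. Visual cortex had 12 ± 3.43 CPM (SD, n = 4) in AL mice, motor cortex 13.9 ± 1.48 (SD, n = 4), corpus callosum 9.41 ± 1.08 (SD, n = 3) and caudate putamen, the lowest, 8.35 ± 0.791 (SD, n = 4). The one other step at which every mouse went the same way was that from cerebellum to visual cortex, 0.71 on the log2 scale in 6 of 6 mice. Its exact paired permutation p was 0.0312, the smallest that 6 mice allow (adjusted p = 0.263), and limma over all genes gave 0.69 (SE 0.12, adjusted p = 0.00143). The other 12 steps of Fabp7 did not exceed the spread between mice in either test, which does not show that those neighbours are alike.

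Fabp3, the muscle and neuron form, followed another order, with the cortex on top. It was highest in visual and motor cortex, at 95.3 ± 12.9 and 96.6 ± 9.79 CPM in AL mice (SD, n = 4 each). Thalamus, entorhinal cortex and pons came next, and SVZ was lowest, at 46.4 ± 3.98 CPM in AL and 40.4 ± 2.71 in PBS mice (SD, n = 4 each). Its control mean spanned 52.8 to 114 CPM per kb of transcript, and 0 of its 14 neighbour steps passed either the exact paired permutation test, at an adjusted or an unadjusted p of 0.05, or limma. Fabp5 was highest in medulla, at 171 ± 20.8 CPM in AL and 144 ± 13.2 in PBS mice (SD, n = 4 each). Pons and thalamus followed, and cerebellum was lowest, at 56.4 ± 4.99 CPM in AL mice (SD, n = 4). Of its 14 steps, 3 had an exact permutation p under 0.05 before adjustment and 0 after. The limma fits, which called 50.4% of genes over the 42 neighbour comparisons, called 3 as well: medulla above pons by 0.50 (SE 0.11, adjusted p = 0.0331), thalamus above choroid plexus by 0.30 (SE 0.09, adjusted p = 0.0175) and olfactory bulb above cerebellum by 0.29 (SE 0.06, adjusted p = 0.00285).

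Per kilobase of transcript, the scale on which genes can be compared, Fabp7 led in the olfactory bulb and was the least abundant of the 3 in the other 14 regions. Its mean over control mice there was 618 CPM per kb, against 57.6 for Fabp3 and 60.9 for Fabp5. In motor cortex the order was Fabp3 at 111, Fabp5 at 74.1 and Fabp7 at 16.7 CPM per kb. In medulla it was Fabp5 at 159, Fabp3 at 71.3 and Fabp7 at 39.1 CPM per kb.

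**Figure D1:**
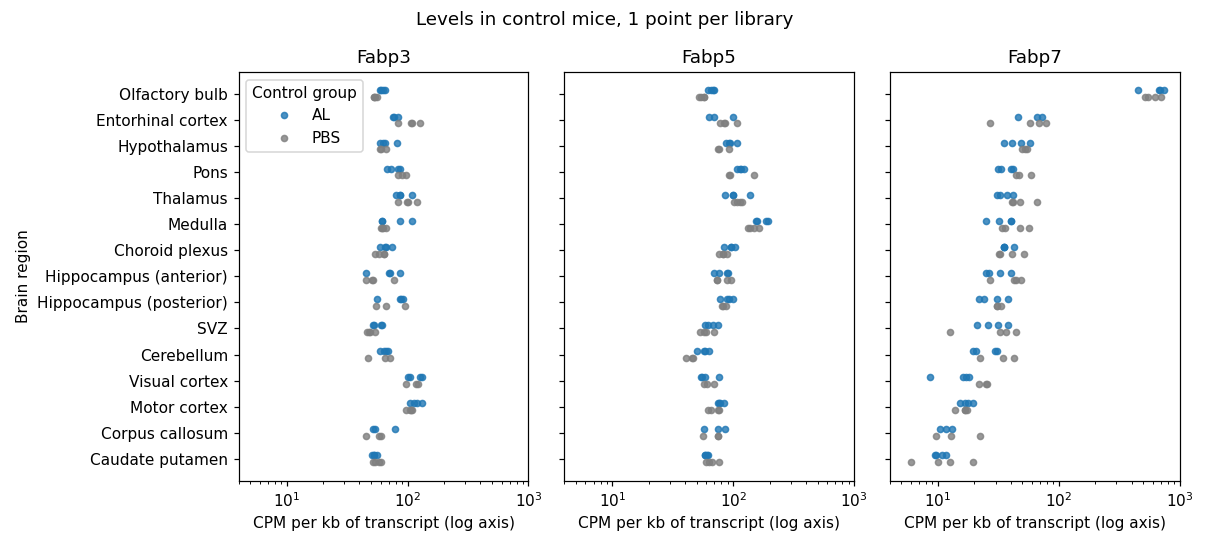
Level of Fabp3, Fabp5 and Fabp7 (CPM per kb of transcript, log axis) in each control library, by brain region in the order of the Fabp7 level; blue points are AL and grey points PBS libraries. Fabp7 stands far to the right in the olfactory bulb, where its mean is 618 CPM per kb, while Fabp3 and Fabp5 vary over a narrow range.

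The region levels were closely related between the control groups, while single steps of the order were less steady. In AL mice alone 5 of 14 steps reversed for Fabp3, 4 for Fabp5 and 3 for Fabp7. In PBS mice alone 4, 5 and 5 did. Over the 15 region means, AL and PBS levels of Fabp7 were related with r = 0.985 (Pearson) and rho = 0.946 (Spearman). For Fabp3 both were 0.882, and for Fabp5 they were 0.926 and 0.875. These are descriptions over regions that share mice, and the Fabp7 value leans on the olfactory bulb. Among 12024 genes with a mean of at least 5 CPM, those closest to Fabp7 over the 15 control region means were Omp, the marker of olfactory sensory neurons (r = 0.911), Smoc1, a secreted matrix protein (r = 0.906), Mageh1 and Ttc39c (both 0.894) and Sema3d, a semaphorin guidance cue (r = 0.888). These values of Fabp7, too, lean on the olfactory bulb, where its level is far above that of the other regions. Closest to Fabp3 were Tusc2 (r = 0.934), Rabgef1, Elp5, Pnpla8 and Stmn1. Closest to Fabp5 were Ndufa12, a subunit of respiratory complex I (r = 0.929), Mrrf, Ndufb6, Atg5 and Smim27.

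With region and treatment taken out, the 3 members varied from library to library in different company. Over the deviations of 229 brain libraries from their group means, which share depth and library quality, the genes closest to Fabp7 were Calb2, calretinin of interneurons (r = 0.598), Tspan6 and Eps8 (both 0.506), Fads2, a desaturase that makes polyunsaturated fatty acids (r = 0.495), and Aqp4, the water channel of astrocyte end-feet (r = 0.485). The 20 astrocyte markers had a median r of 0.244 with Fabp7, against -0.00983 over all genes. The genes closest to Fabp3 were Map1lc3a (r = 0.782), Ppia, Chchd6, Ssu72 and AI413582, and those closest to Fabp5 were Gapdh, the glycolysis enzyme (r = 0.731), Mif, Vegfb, Tbcb and Fis1. Those of Fabp5 depended on the experiment. Gapdh had r = 0.839 with it in diet and 0.368 in plasma libraries. Map1lc3a had 0.809 and 0.712 with Fabp3. Fabp3 and Fabp5 deviated together (r = 0.556), whereas Fabp7 was weakly related to Fabp5 (r = 0.274) and to Fabp3 (r = 0.145).

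Under dietary restriction, brain Fabp7 was lower in every region, while Fabp3 and Fabp5 showed no shift in one direction. Fabp7 chose this set, so its values are a description. With 1 value per mouse, its log2 level over regions relative to the mean mouse, Fabp7 was 0.31, 0.32, 0.22 and 0.50 in AL mice 63, 66, 68 and 69. It was -0.17, -0.25, -0.27, -0.19 and -0.47 in aDR mice 61, 62, 64, 65 and 67. All 5 restricted mice were below all 4 freely fed mice. The difference was -0.60 (SE 0.072), which is 65.8% of the AL level, and leaving out any one mouse kept it between -0.64 and -0.55. Mouse values separated the diets, in either direction, for 8.3% of the 15616 genes tested, and 0.922% of genes passed an adjusted p of 0.05 in limma. Since the choice of Fabp7 used this contrast, nothing is read from its place among them.

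The other members overlapped between the diets. Fabp3 mouse values ran from -0.08 to 0.08 in aDR and from -0.07 to 0.01 in AL mice, a difference of 0.03 (SE 0.04). Fabp5 values ran from -0.25 to 0.11 in aDR and from -0.03 to 0.04 in AL mice, a difference of -0.01 (SE 0.07). The low end of Fabp5 was aDR mouse 67 alone, and without it the difference was 0.05.

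**Figure D2:**
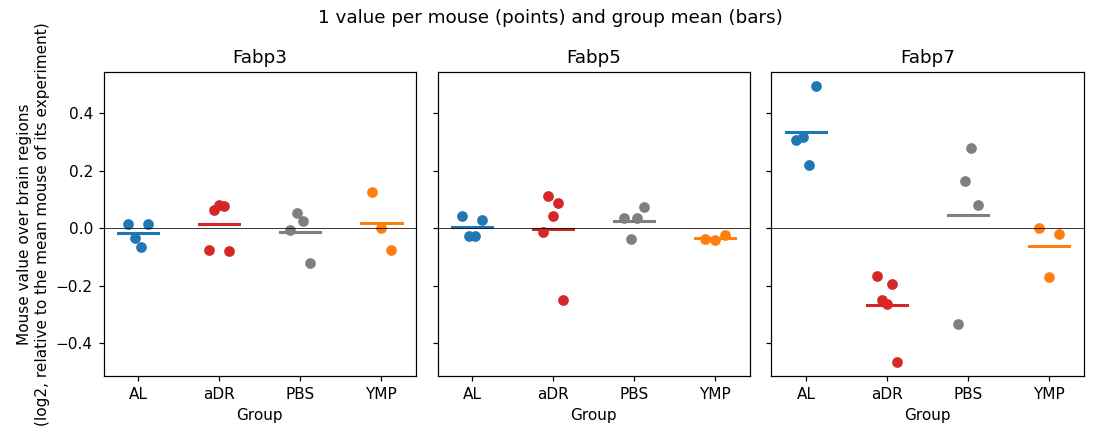
One value per mouse for Fabp3, Fabp5 and Fabp7 (log2 level over its brain regions, relative to the mean mouse of its experiment), with points for mice and bars for group means. For Fabp7 the AL mice lie at 0.22 or above and the aDR mice at -0.17 or below, while YMP and PBS mice overlap.

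Region by region, Fabp7 was lower on aDR in 15 of 15 regions, with a median log2 difference of -0.52. The regions share the same 9 mice, so they are not 15 independent observations. In the olfactory bulb, where it is most abundant, CPM was 300, 163, 363, 231 and 280 in aDR mice 61, 62, 64, 65 and 67, against the AL values of 363 to 601 given above. The groups met without overlapping, since the highest aDR and the lowest AL library both rounded to 363 CPM. The means were 267 ± 75.3 (SD, n = 5) and 514 ± 104 CPM (SD, n = 4), a log2 difference of -0.93 (SE 0.19).

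The largest difference on the log2 scale was in motor cortex, a region of low Fabp7. CPM there was 5.46, 7.25, 9.75, 7.75 and 5.18 in the 5 aDR mice and 15.7, 12.2, 13.6 and 14.3 in the 4 AL mice. The highest aDR library was below the lowest AL library, and the log2 difference was -0.97 (SE 0.16), or 51.2% of the AL mean.

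In entorhinal cortex CPM was 27.0, 24.9, 30.3, 27.8 and 24.6 on aDR and 57.9, 36.9 and 53.5 on AL (log2 difference -0.87, SE 0.14). In hypothalamus it was 23.5, 22.8, 17.9 and 17.6 in aDR mice 62, 64, 65 and 67 and 28.4, 32.7, 39.3 and 46.3 in the 4 AL mice (log2 difference -0.82, SE 0.16). In corpus callosum it was 5.25, 4.65, 5.86 and 5.32 on aDR and 8.38, 10.5 and 9.30 on AL (log2 difference -0.83, SE 0.16). In each of these 3 regions, too, the diets did not overlap. Choroid plexus (-0.59), anterior hippocampus (-0.68) and caudate putamen (-0.40) completed the 8 regions in which all aDR libraries were below all AL libraries. In caudate putamen the groups nearly met, at 7.65 CPM in the highest aDR and 7.67 in the lowest AL library. Over the 15 regions summed, 1.44% of genes had such a lower, non-overlapping pattern, and since this contrast chose Fabp7, that share is background only.

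In the other 7 regions the diets overlapped in Fabp7. The smallest differences were in cerebellum, with 16.1 ± 3.98 CPM on aDR (SD, n = 5) and 20.4 ± 4.85 on AL (SD, n = 4), a log2 difference of -0.34 (SE 0.18), and in visual cortex, at -0.35 (SE 0.17). In SVZ the libraries ranged from 8.22 to 24.8 CPM on aDR and from 16.8 to 30.7 on AL. In pons the lowest aDR value, 9.66 CPM, came from the library of mouse 67 that stood apart, and leaving that mouse out moved the log2 difference from -0.47 to -0.31. EdgeR's quasi-likelihood fits called 0.0525% of genes over the 15 regions, and no call is counted for Fabp7, since this contrast chose it.

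**Figure D3:**
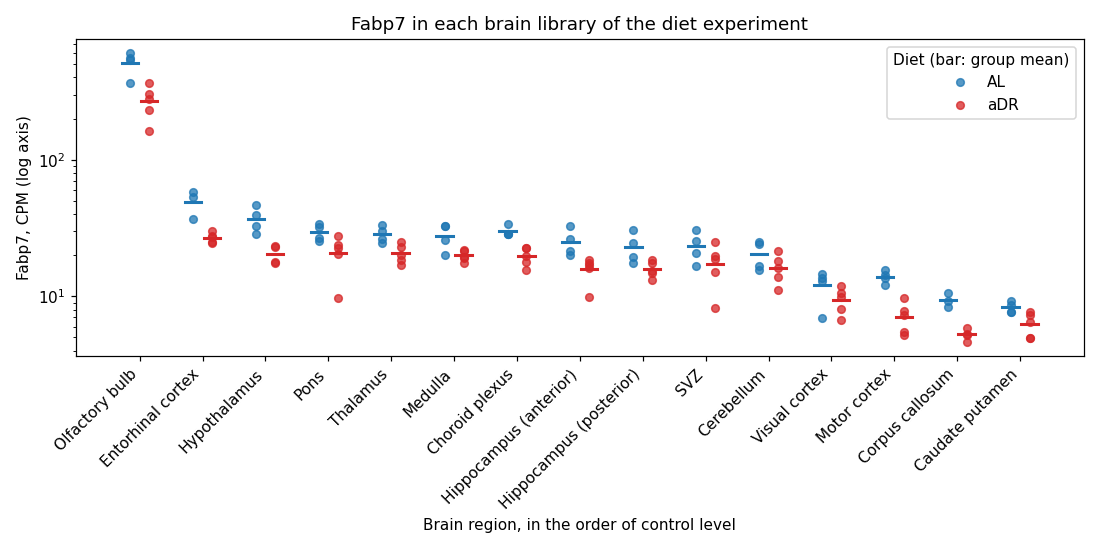
Fabp7 in each brain library of the diet experiment (CPM, log axis), by region in the order of control level, with AL in blue, aDR in red and bars at the group means. The aDR mean is below the AL mean in all 15 regions, and in 8 of them every aDR value is below every AL value. In olfactory bulb and caudate putamen the closest red and blue points nearly coincide.

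The relative size of the Fabp7 difference had no simple relation to its level. Over the 15 regions, the level in PBS mice, which are not in the diet contrast, and the diet difference were related with r = -0.335 (Pearson) and rho = -0.318 (Spearman), given as a description. Both high regions (olfactory bulb, entorhinal cortex) and low ones (motor cortex, corpus callosum) had large differences.

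Fabp3 was lower on aDR in 5 and higher in 10 regions (median log2 difference 0.06), and Fabp5 was lower in 7 and higher in 8 (median 0.02). The largest values of both were in caudate putamen. There Fabp3 was 51.1, 60.6, 115, 44.8 and 56.4 CPM in aDR mice 61, 62, 64, 65 and 67, against 42.05 to 46.1 in AL mice, a log2 difference of 0.59 (SE 0.25). Fabp5 was 79.6, 89.3, 164, 70.9 and 67.8 CPM in the same aDR mice, against 57.3 to 60.9 in AL mice, a log2 difference of 0.69 (SE 0.25). That of aDR mouse 64 was the highest in both, and without that mouse the differences were 0.30 for Fabp3 and 0.40 for Fabp5. Fabp5 of the caudate putamen was the single case among these 2 genes and 15 regions in which the diets did not overlap; the background for a non-overlap in either direction is 3.04%. In SVZ Fabp5 was 81.3 ± 11.9 CPM on aDR (SD, n = 5) and 65.3 ± 7.39 on AL (SD, n = 4), with overlap.

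Markers of astrocytes and of progenitors and neuroblasts stayed uncalled in the limma fit. No list covered the ensheathing glia of the olfactory system, in which Fabp7 is also known. Of the 20 astrocyte markers, 0 passed an adjusted p of 0.05 across regions in limma, 4 had an unadjusted p under 0.05, and voom with the mouse as a block called 3. Of these markers 9 had a positive and 11 a negative log2 difference, with a median of -0.01, equal to that of all genes to 2 decimals. The 2 with the smallest p, both positive, were Gjb6, a gap junction protein (0.28, SE 0.06, adjusted p = 0.0781), and Fgfr3, a growth factor receptor (0.18, SE 0.05, adjusted p = 0.116). The mouse values of a marker list, here and below, were fitted on the log2 of its summed CPM, in which abundant genes weigh most. For the astrocyte list they ran from -0.03 to 0.07 on aDR and from -0.04 to -0.01 on AL. In liver the same sum was 27000 to 34000 CPM on DR and 27300 to 29800 on AL, so it is not particular to astrocytes. Of the 20 markers, 0 were at 0 in any brain group. In the olfactory bulb their summed level was 8590 to 9480 CPM on aDR and 8960 to 9990 on AL. Of 14 progenitor and neuroblast markers, 0 passed in limma, 4 had an unadjusted p under 0.05 and the blocked voom fit called 2. Of the 14, 11 were lower on aDR, with a median of -0.11. The mouse values of this list ran from -0.09 to 0.03 on aDR and from -0.01 to 0.12 on AL. Its 2 genes with the smallest p in limma were Pax6 (-0.17, SE 0.04, adjusted p = 0.0862) and Nes (-0.21, SE 0.06, adjusted p = 0.127). In whole tissue, fewer cells of a type and less RNA per cell cannot be told apart.

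Among genes that take up and activate fatty acids, 1 of 14 tested was called and it rose: Mfsd2a, the transporter of docosahexaenoic acid at the blood-brain barrier, by 0.37 on the log2 scale (SE 0.06, adjusted p = 0.0311 in limma). Limma called 0.922% of all genes here, and this list was chosen with earlier results of these data known. The list kept 1 called gene without aDR mouse 65 or 67 and had 0 without any other mouse. In the other lists of fatty acid genes limma called none: 0 of 8 PPAR and RXR receptors and coactivators (1 at an unadjusted p under 0.05, 0 by blocked voom), 0 of 17 genes of fatty acid oxidation and other PPAR targets (3 and 0), 0 of 13 enzymes of polyunsaturated lipids (3 and 2) and 0 of 11 Notch genes (2 and 2). Their medians ran from -0.05 to 0.03. The smallest p among them belonged to Acaa2, a thiolase of fatty acid oxidation (0.16, SE 0.04, adjusted p = 0.0823), and Elovl6, an elongase (-0.16, SE 0.04, adjusted p = 0.0831).

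Clock and vessel genes moved in the same mice. Their lists were chosen with earlier results of these data known, so the counts are a description. Over all genes limma called 0.922% in this contrast. Of 19 circadian clock genes, 6 rose and 2 fell across regions, among them Ciart (0.76, SE 0.04, adjusted p = 8.79e-05) and Cry1 (0.37, adjusted p = 0.0131), 2 repressors, upwards and Arntl, the core activator, downwards (-0.32, adjusted p = 0.00736). Of 11 endothelial markers 6 fell, led by the receptors Tek (-0.37, adjusted p = 0.00736) and Kdr (-0.56, adjusted p = 0.0097). Leaving out 1 mouse gave 2 to 9 called clock genes and 1 to 5 endothelial genes, both lowest without AL mouse 66. Of the 5 blood cell markers 0 were called (1 at an unadjusted p under 0.05, 1 by blocked voom), with a median of 0.93 and mouse values from -1.02 to 1.07 on aDR and from -0.69 to -0.19 on AL. Over deviations within groups, the clock genes had a median r of -0.181 with Fabp7 and the endothelial markers one of 0.021. The part of the clock, of vessels or of blood in the Fabp7 difference was not tested.

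In the liver of the same mice, the diet difference of Fabp1 was close to 0 and Fabp5 had a lower mean on DR, and neither passed the test. Fabp1 was 2980, 4734, 5718, 4879 and 3294 CPM in DR mice 61, 62, 64, 65 and 67 and 3613, 5815, 4529 and 4548 in AL mice 63, 66, 68 and 69. The groups overlapped throughout, with a log2 difference of -0.10 (95% interval -0.65 to 0.45, edgeR adjusted p = 0.968). Fabp5 was 226, 21.0, 69.0, 77.0 and 36.2 CPM in the DR mice and 131, 185, 183 and 454 in the AL mice. Of the 5 DR values 4 were below all 4 AL values, and DR mouse 61 was above 3 of them. The log2 difference was -1.48 (SE 0.60, 95% interval -2.90 to -0.05, unadjusted p = 0.0322, edgeR adjusted p = 0.469). It was -2.24 without DR mouse 61 and -0.95 without AL mouse 69, and the adjusted p ran from 0.084 to 0.919 over the fits that left out a mouse. Summed blood cell markers were 62.7 to 96.3 CPM on DR and 97.4 to 215 on AL, and summed microglia markers, which liver macrophages share, 107 to 286 on DR and 172 to 459 on AL; their part in the Fabp5 values was not tested.

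Fabp7 was scarce in liver, at 17 to 57 counts per library. Its means were 4.14 ± 3.15 CPM on DR (SD, n = 5) and 5.38 ± 2.58 on AL (SD, n = 4), a log2 difference of -0.46 (95% interval -1.52 to 0.60, edgeR adjusted p = 0.872). It was -0.94 without DR mouse 65 and -0.10 without AL mouse 68 (adjusted p 0.434 to 0.999 over the fits that left out a mouse). In all, 0 of the 3 members tested in liver were called by edgeR or DESeq2 and 1 had an unadjusted p under 0.05, where edgeR called 0.22% of 11815 genes and 9.09% had an unadjusted p under 0.05. The diets overlapped in each of the 3, while 4.22% of genes did not overlap. Fabp3 was too low in liver to be tested.

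**Figure D4:**
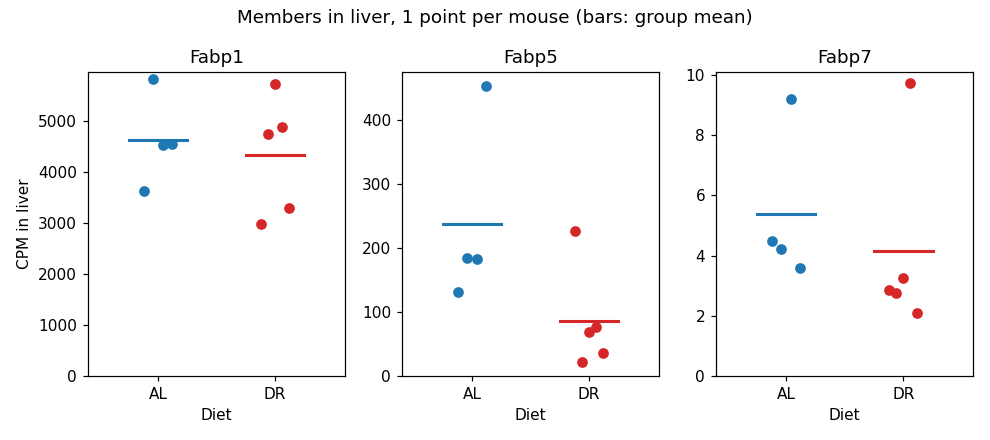
Fabp1, Fabp5 and Fabp7 in liver (CPM, a separate axis for each gene) on AL and DR, with 1 point per mouse and bars at the group means. The Fabp5 means are 238 CPM on AL and 85.9 on DR, with 1 high mouse in each group, and Fabp1 and Fabp7 overlap.

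The liver genes around the family were mostly uncalled as well. Of 18 genes of fatty acid oxidation and other PPAR targets, 17 had a positive value, with a median of 0.32 against 0.02 over all genes. EdgeR called 0 of them, 4 had an unadjusted p under 0.05 and DESeq2 called 1; the smallest p belonged to Angptl4, a lipase inhibitor (0.91, SE 0.25, adjusted p = 0.203), and Cyp4a14, a fatty acid hydroxylase (1.16, SE 0.36, adjusted p = 0.282). Mfsd2a had the smallest p of the uptake genes (1.77, SE 0.33, adjusted p = 0.0689), of which edgeR called 0 of 12, 3 had an unadjusted p under 0.05 and DESeq2 called 2. Of 17 clock genes, Ciart (1.97, adjusted p = 0.00229) and Cry1 (1.93, adjusted p = 0.0047) rose and Nr1d1 fell (-1.60, adjusted p = 0.0254). The clock list was chosen with earlier results of these data known, and edgeR called 0.22% of all genes in liver. Fabp4 was at -0.22 (SE 0.27, adjusted p = 0.918).

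With young plasma no difference of the 3 brain members across regions passed the test. Mouse values of Fabp7 were -0.33, 0.16, 0.28 and 0.08 in PBS mice 72, 76, 80 and 84 and 0.00, -0.17 and -0.02 in YMP mice 73, 77 and 81. The 3 YMP mice lay within the PBS range, whose low end was mouse 72 alone. The difference was -0.11 on the log2 scale (SE 0.14, 95% interval -0.47 to 0.25, limma adjusted p = 0.852). Leaving out 1 mouse moved it to between -0.24, without PBS mouse 72, and -0.04, without PBS mouse 80 (adjusted p 0.647 to 0.974).

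Fabp3 differed by 0.03 (SE 0.07, 95% interval -0.14 to 0.20, adjusted p = 0.919) and turned to -0.02 without YMP mouse 73. Fabp5 differed by -0.06 (SE 0.04, 95% interval -0.17 to 0.05, adjusted p = 0.732), with YMP values of -0.04, -0.04 and -0.02 and PBS values of 0.04, -0.04, 0.03 and 0.07. For both genes the groups overlapped, as for Fabp7, so 0 of 3 members separated the groups, where 10.1% of genes did and 5.34% did with lower values in YMP. Limma called 0% of the 15768 genes and 8.09% had an unadjusted p under 0.05; of the 3 members 0 were below that. Voom over all libraries with the mouse as a block called 486 genes, none of them a member (adjusted p of Fabp7 0.641).

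**Figure D5:**
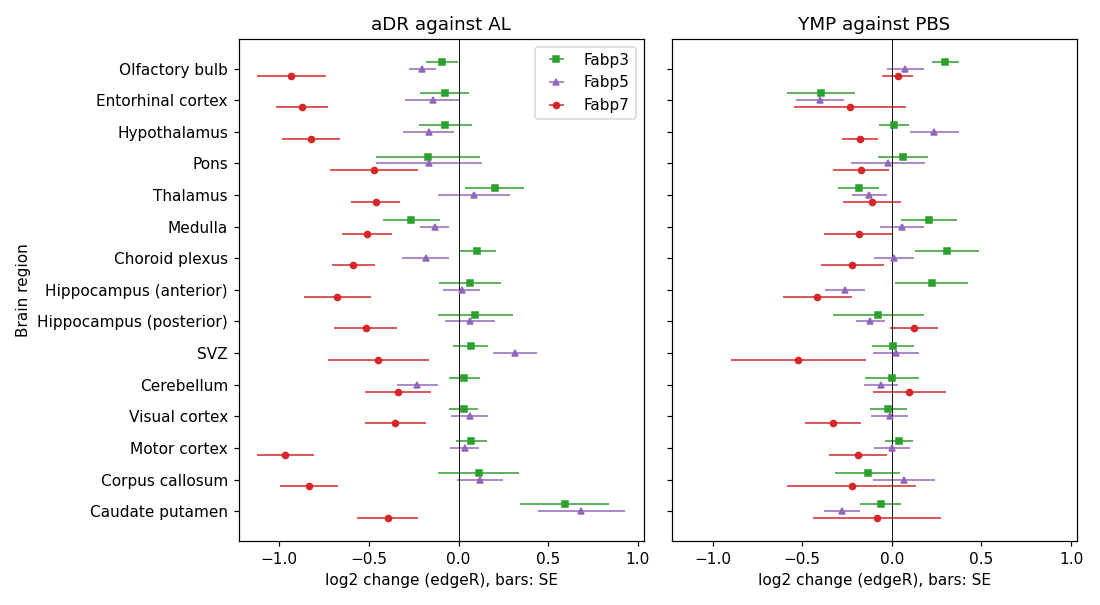
Log2 change (edgeR, bars are SE) of Fabp3, Fabp5 and Fabp7 in each brain region, for aDR against AL on the left and YMP against PBS on the right. On the left all 15 Fabp7 points lie below 0 and on the right 12 of 15 do, from -0.52 to 0.13.

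Within regions the plasma experiment gave no called member. Fabp7 was lower with YMP in 12 of 15 regions (median -0.19), Fabp5 in 9 (median -0.01) and Fabp3 in 6 (median 0.01). Of these 45 tests by edgeR's quasi-likelihood method 0 passed an adjusted p of 0.05, 4 had an unadjusted p under 0.05 and DESeq2 also called 0. The background over 15 regions was 0.0127% called and 6.11% at an unadjusted p under 0.05.

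The furthest Fabp7 value was in SVZ, the neurogenic wall of the lateral ventricle. CPM there was 10.03, 35.4, 26.4 and 29.4 in PBS mice 72, 76, 80 and 84 and 17.5, 15.4 and 19.6 in YMP mice 73, 77 and 81. The 3 YMP libraries lay above the first PBS library and below the rest. The log2 difference was -0.52 (SE 0.38, adjusted p = 0.603), and edgeR's fits that left out 1 mouse ran from -0.82 without PBS mouse 72 (adjusted p = 0.0491) to -0.30 without PBS mouse 76 (adjusted p = 0.873). The other 5 such fits gave an adjusted p of 0.622 to 0.901. Summed choroid plexus markers in SVZ were 29.9 to 54.5 CPM with YMP and 2720 to 19900 with PBS, and their part in this difference was not tested. In the olfactory bulb Fabp7 was 486 ± 31.6 CPM with YMP (SD, n = 3) and 480 ± 65.2 with PBS (SD, n = 4), a log2 difference of 0.03 (SE 0.09, adjusted p = 0.975).

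Fabp3 in the olfactory bulb was 53.6, 51.5 and 55.5 CPM with YMP and 44.0, 46.0, 43.6 and 43.1 with PBS. The groups did not overlap, and the log2 difference of 0.30 (SE 0.08) had an unadjusted p of 0.00131 and an edgeR adjusted p of 0.397. Fabp5 was lower with YMP in entorhinal cortex, at 70.7, 59.1 and 68.2 CPM against 107, 82.2, 84.6 and 77.0 with PBS (-0.40, SE 0.13, adjusted p = 0.91). It was also lower in caudate putamen (-0.28, SE 0.10, adjusted p = 0.474) and in anterior hippocampus (-0.26, SE 0.11, adjusted p = 0.683). Those 3 regions and posterior hippocampus are the 4 in which Fabp5 did not overlap between the groups and was lower, where 4.44% of genes over all regions did so. Fabp7 did not overlap in hypothalamus, a region named after its values were seen, with 33.8 to 39.7 CPM with YMP and 39.9 to 43.7 with PBS. Together 6 of the 45 comparisons did not overlap, against 9.29% of all genes and regions, and none of the 6 passed the adjusted test.

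Whether the plasma difference varied between regions was tested with an F test of region by treatment over all libraries, in which edgeR called 0.786% of 15768 genes. This fit had no mouse term, so libraries of the same mouse were taken as independent. It called 124 genes, and 147 with the mouse as a block. Among the members 0 were called, with adjusted p of 1 for Fabp3, 0.921 for Fabp5 and 1 for Fabp7; none had an unadjusted p under 0.05 (the lowest was 0.148).

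In the plasma experiment limma called 0 genes in each of the 16 lists. Astrocyte markers had a median of -0.06 (4 of 20 at an unadjusted p under 0.05, 0 by blocked voom), led by Gfap, the astrocyte filament (-0.36, SE 0.09, adjusted p = 0.422). Fatty acid oxidation genes had a median of -0.10 (4 of 17 and 2), led by Cpt1a, which brings fatty acids into mitochondria (-0.21, SE 0.06, adjusted p = 0.461). Choroid plexus markers were negative in 10 of 10, with a median of -1.24 (9 at an unadjusted p under 0.05 and 10 by blocked voom). Their summed level in corpus callosum was 9.26 to 22.1 CPM in the 2 YMP libraries and 5200 to 19100 CPM in the 3 PBS libraries. These markers had a median r of 0.0874 with Fabp7 over deviations within groups, and without corpus callosum the plasma difference of Fabp7 across regions was -0.12.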

How the data were processed

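The counts per gene of 238 libraries were analysed as deposited; the labels name RNeasy extraction, Smart-Seq2 cDNA and unstranded Nextera XT libraries. Trim Galore 0.3.7, STAR 2.5.3a, DESeq2 and build GRCm38 are named in the submitters' processing notes, and the counting program and annotation are not given in the sources used here. Reads of overlapping genes on both strands cannot be separated. Of the gene rows, 537 had no count.

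The members and gene lists were chosen with earlier results of these data known. EdgeR 4.0.16 (R 4.3.3) filtered genes with filterByExpr (minimum count 10, minimum total 15) and scaled by TMM. Within a region or liver its quasi-likelihood test was used. Across regions limma 3.58.1 tested 1 value per mouse, the mouse term of log2 CPM (prior count 2) fitted on region and mouse. P-values were Benjamini-Hochberg adjusted over all genes tested, with a threshold of 0.05. CPM used TMM over the 229 brain libraries, or over the 9 of liver. Levels per kb used GENCODE principal transcripts of 553 (Fabp1), 823 (Fabp3), 987 (Fabp5) and 804 bases (Fabp7). Neighbouring regions, in the order of their mean level in the same control libraries, were compared by exact sign-flip permutation over mice (scipy 1.17.1). DESeq2 1.42.0, other scaling, no filter and leaving out mice or libraries were the alternatives. The limma fits across regions, edgeR and DESeq2 in liver and edgeR in olfactory bulb were tested on simulated counts. The region by treatment, voom and neighbour tests were not. Mouse numbers mark 1 animal in all its regions and never pair treatments. Libraries of one mouse deviated together slightly (mean r 0.0496 against -0.00613 between mice in the diet and 0.117 against -0.0196 in the plasma experiment). Mice are the replicates, and no 2 libraries of a group were the same within sampling noise (lowest chi-square per degree of freedom 1.29 over 357 pairs). Named genes were the members, the 5 closest genes by each correlation, and per list at most 4 genes past the threshold, or at most 2 by smallest p where none was. For brevity not every list's genes are printed. The gene lists not described for a comparison had no gene called there by limma (brain) or edgeR (liver); blocked voom called 3 clock genes under plasma, and in liver DESeq2 called 2 progenitor and neuroblast markers, 2 blood cell markers and 1 each of the PPAR and RXR, endothelial and hepatocyte lists.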

Additional observations from a re-analysis of the deposited data

Results flagged for a closer look

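Dixon's test was run on 126 groups of 4 or 5 values of a member, either CPM of libraries or mouse values over brain regions. In 9 of them 1 value lay far from the others, where chance gives about 1 in 20 groups, here 6.3. In caudate putamen the library of aDR mouse 64 had 115 CPM of Fabp3, where the others had 44.8 to 60.6, and 164 CPM of Fabp5, where the others had 67.8 to 89.3. Fabp7 in anterior hippocampus was 9.96 CPM in the same mouse and 16.1 to 18.5 in the others. Fabp3 in posterior hippocampus was 46.4 CPM in AL mouse 68 and 70.9 to 75.2 in the others. Fabp7 in choroid plexus was 34.1 CPM in AL mouse 66 and 28.4 to 28.5 in the others.

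The liver held 4 of the 9. Fabp5 was 454 CPM in AL mouse 69, with the others at 131 to 185, and 226 CPM in DR mouse 61, with the others at 21.0 to 77.0. Fabp7 was 9.21 CPM in AL mouse 68, with the others at 3.59 to 4.49, and 9.73 CPM in DR mouse 65, with the others at 2.09 to 3.25.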

How the results depend on the processing

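Fabp7 was lower on aDR across regions under all 19 alternatives tried (-0.64 to -0.55). It was also lower in 15 of 15 regions in every within-region alternative. These are descriptions, over regions that share mice. Counts of genes called moved more. With the mouse as a block over all libraries (voom), 1474 genes were called for diet (144 in the fit of 1 value per mouse) and 486 for plasma (0); with no replicate block these were 2760 and 2629. Leaving out 1 mouse gave 14 to 163 for diet, 0 to 1 for plasma and 7 to 55 in liver (26 with all mice), where DESeq2 called 224. Summed over regions, diet called 108 genes (523 with DESeq2, 185 with no filter, 37 to 160 without 1 mouse) and plasma 26 (946 with DESeq2, 44 with its size factors in edgeR, 422 with no filter, 1 to 777 without 1 mouse). Plasma by region called 124 (147 with the replicate block, 187 without choroid plexus, 10 without corpus callosum, 3 to 153 without 1 mouse).

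Reported values of these genes that turned sign without 1 mouse were Fabp5 under diet across regions (-0.0392 to 0.0545, also 0.00924 without choroid plexus and 0.0116 without the pons library of aDR mouse 67), Fabp3 under plasma across regions (-0.0215 to 0.0748), liver Fabp1 (-0.223 to 0.0301) and its relative Fabp4 (-0.413 to 0.0373), and Fabp7 under plasma in olfactory bulb (-0.0456 to 0.118) and cerebellum (-0.127 to 0.293); none of the tested ones was called. Neighbouring regions called in controls rose from 0 to 1 for both Fabp5 and Fabp7 with no replicate block, and to 3 and 2 in limma over all genes with the mouse as a replicate block, a setting chosen after seeing the data. The causes were not tested. Depth limits Fabp7 in liver (17 to 57 counts) and Fabp1 in brain.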
